A study of Mus musculus with 12 samples.

Results

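Respiratory complex I was followed through the probes whose annotated gene symbol starts with Nduf, with the assembly factors (Ndufaf genes) left out. This gave 54 of the 41174 probes on the array and 36 of 17837 named genes. Ventricle muscle was taken from 6 wild-type mice (WT, AMPK alpha2 +/+) and 6 mice without AMPK alpha2 (KO, AMPK alpha2 -/-). AMPK is the AMP-activated protein kinase, which senses cellular energy, and alpha2 is a catalytic subunit of it. Both genotypes were on strain C57B6 and were studied at 7 months of age. The labels name no tissue-specific deletion and no other allele, and all animals were anaesthetized with pentobarbital before the heart was taken. Each animal had 1 array on which its heart RNA competed with a universal mouse reference RNA made from 11 cell lines. Heart RNA carried the dye Cy3 in replicates 1 to 3 of each genotype and the dye Cy5 in replicates 4 to 6, so each combination of genotype and dye held 3 different animals. A value is the log2 ratio of heart over reference signal for a probe. It ranks a gene against its own level in the reference, so it does not rank genes by abundance.

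Complex I, the NADH:ubiquinone oxidoreductase, is the entry point of electrons from NADH into the respiratory chain. Its matrix arm oxidises NADH and passes electrons through iron-sulfur clusters to ubiquinone, and its membrane arm pumps protons. The core subunits of the matrix arm and the accessory subunits are encoded in the nucleus, while the core of the membrane arm is encoded in mitochondrial DNA. Heart muscle is rich in mitochondria and depends on this chain for most of its ATP. Ndufa4, which the symbol rule includes, was named as a complex I subunit but is now counted with complex IV, and 35 members remain without it.

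The promoters of 5 members are shown because the Nduf genes varied together between animals, as described further on. Among the 17 members measured on all arrays, Ndufa1 followed the mean of the others most closely and Ndufa11 least closely. Ndufb4, Ndufs5 and Ndufs6 were picked for holding most motif matches among those of the 17 with 1 promoter window. Each sequence is the RefSeq promoter window of GRCm38.p6, 250 bases before to 50 bases after the gene start, read 5′ to 3′ on the gene's strand. Capitals mark matches to the motifs of 4 factors known to activate mitochondrial genes, searched on both strands.
Ndufa1 (chrX:37191189-37191488, minus strand): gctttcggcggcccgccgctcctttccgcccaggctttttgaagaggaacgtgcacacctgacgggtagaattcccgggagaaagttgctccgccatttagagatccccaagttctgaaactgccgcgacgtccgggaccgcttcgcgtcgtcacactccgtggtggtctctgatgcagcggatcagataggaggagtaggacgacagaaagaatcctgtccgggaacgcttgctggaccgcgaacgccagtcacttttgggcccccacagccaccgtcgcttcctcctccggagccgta
Ndufa11 (chr17:56717512-56717811, plus strand): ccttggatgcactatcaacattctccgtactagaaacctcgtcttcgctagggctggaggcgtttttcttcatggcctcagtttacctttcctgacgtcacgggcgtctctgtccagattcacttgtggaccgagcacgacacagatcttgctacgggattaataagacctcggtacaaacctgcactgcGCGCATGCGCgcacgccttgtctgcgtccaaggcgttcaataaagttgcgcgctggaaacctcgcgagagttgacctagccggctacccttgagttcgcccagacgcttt
Ndufb4 (chr16:37654319-37654618, minus strand): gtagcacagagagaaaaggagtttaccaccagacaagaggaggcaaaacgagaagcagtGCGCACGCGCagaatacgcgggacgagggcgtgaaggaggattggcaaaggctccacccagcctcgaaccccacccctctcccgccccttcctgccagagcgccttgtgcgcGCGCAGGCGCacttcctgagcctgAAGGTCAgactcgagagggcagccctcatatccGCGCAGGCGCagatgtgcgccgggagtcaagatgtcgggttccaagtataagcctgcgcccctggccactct
Ndufs5 (chr4:123718137-123718436, minus strand): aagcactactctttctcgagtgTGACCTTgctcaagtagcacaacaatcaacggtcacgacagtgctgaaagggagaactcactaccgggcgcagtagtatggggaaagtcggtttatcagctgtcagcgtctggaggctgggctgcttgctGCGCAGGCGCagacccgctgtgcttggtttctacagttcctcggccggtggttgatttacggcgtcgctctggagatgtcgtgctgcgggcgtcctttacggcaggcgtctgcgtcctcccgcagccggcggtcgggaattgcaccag
Ndufs6 (chr13:73328433-73328732, minus strand): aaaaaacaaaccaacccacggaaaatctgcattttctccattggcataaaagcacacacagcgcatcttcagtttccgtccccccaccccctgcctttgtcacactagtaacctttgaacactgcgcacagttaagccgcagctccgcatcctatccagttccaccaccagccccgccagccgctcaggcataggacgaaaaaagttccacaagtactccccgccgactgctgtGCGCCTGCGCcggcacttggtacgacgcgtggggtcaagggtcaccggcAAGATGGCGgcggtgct
The palindromic motif of nuclear respiratory factor 1 (NRF1) was found in 7 of the 33 member promoters in the table (21.2%), against 7.98% of promoters of genes on the array. The YY1 motif AAGATGGCG was found in 5 (15.2%, against 2.42%). The motif AAGGTCA of estrogen-related receptors (ERR) was found in 3 (9.09%, against 4.53%) and the GABPA motif CCGGAAGT in 1 (3.03%, against 6.24%). In the sequences above, the window of Ndufb4 held NRF1 matches starting at -191, -79 and -22 and an ERR match at -55, counted from the gene start. Ndufs5 held an NRF1 match at -98 and an ERR match at -228, Ndufs6 an NRF1 match at -16 and a YY1 match at 34, and Ndufa11 an NRF1 match at -60. None of these matches overlapped another. The window of Ndufa1 held no match. A match is a stretch of letters and not a measured binding site.

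The arrays carried heart muscle RNA. Each of the 14 cardiomyocyte markers exceeded the reference wherever it was measured, with a list mean of 5.04 to 5.79 in WT and 5.00 to 5.70 in KO. The lowest means, in WT replicate 3 and KO replicate 4, lacked several markers that had no value there, such as Pln and Tnni3 respectively. These means cannot be compared with means over the full list. Each of the 11 markers of dividing cells lay below the reference throughout. Some animals stood apart. Atrial markers had a list mean of 5.55 in WT replicate 2 and 5.53 in KO replicate 1, against 1.42 in WT replicate 5. The lowest mean, 1.21 in KO replicate 4, lacked Myl7, which had no value there or in WT replicate 6. Nppa, also on that list, ranged from 4.42 to 5.63 over all animals and did not follow the contrast. WT replicate 2 also had the highest adipocyte list mean (3.28), with Adipoq at 3.93 and Cidec at 3.45. The adipocyte mean of KO replicate 1 (3.06) lacked Adipoq and Lep, which had no value there. It rested on Cidec (0.36) and on Fabp4 (5.76), which ranged from 5.20 to 6.07 over all animals. That mean therefore cannot be compared with means over the full list. Lung and liver markers had list means of 4.03 and 4.24 in KO replicate 6, and were at most 1.15 and 0.52 elsewhere. Values were missing for 39.2% of probes in WT replicate 3 and 41.7% in KO replicate 4. WT animals had a log2 ratio of 4.10 ± 0.09 (SD, n = 6) for Prkaa2, the targeted gene, and KO animals one of 3.89 ± 0.26 (SD, n = 5; limma adjusted p = 0.937), and the sources used here do not say whether its probe lies in the deleted part.

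Every member stood above the reference. With limma, 36 of 36 were called above it at an adjusted p under 0.05, against 24.8% of all 25821 features (genes, or probes without 1 symbol), of which 26.6% were called below. In values joined over the probes of a gene, all 36 were above 0 on every array that measured them, against 17.6% of all features. In WT replicate 3, Ndufv3 had values only from its 2 low probes, at -0.78 and -0.418. Its joined value there, 0.43, came from the fit that allows for the missing high probe. Their median log2 ratio was 2.66, and that of all features was 0.02. The reference is a single RNA, and its own spread is not part of this test.

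Ndufa5, a small accessory subunit of the matrix arm, had the highest ratio, 3.68 ± 0.06 (SE, n = 12), which is 12.8-fold over the reference if the deposited logarithms have base 2. Its lowest, median and highest values were 3.54, 3.75 and 4.07 in WT and 3.37, 3.58 and 3.85 in KO. Ndufb9 of the distal membrane arm followed at 3.38 ± 0.07 (SE, n = 10), and Ndufs1, the large iron-sulfur subunit of the matrix arm, at 3.32 ± 0.05 (SE, n = 12). Values of Ndufs1 were 3.12, 3.33 and 3.58 in WT (lowest, median, highest) and 3.15, 3.24 and 3.53 in KO. The errors of these neighbours are of the size of the gaps between Ndufb9 and Ndufs1, so their order is not set.

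At the other end stood Ndufv3 at 0.53 ± 0.05 (SE, n = 12), Ndufv2 at 1.28 ± 0.06 (SE, n = 11) and Ndufs4 at 1.33 ± 0.06 (SE, n = 12). Ndufv3 and Ndufv2 sit at the NADH-oxidising end of the matrix arm, and Ndufs4 helps to stabilise that end. Ndufv3 ranged from 0.31 to 0.91 with a median of 0.51 in WT and from 0.47 to 0.65 with a median of 0.54 in KO. Ndufs4 ranged from 0.98 to 1.59 in WT and from 1.11 to 1.62 in KO. Ndufv2 was at 1.42, 1.19, 1.37, 1.54 and 1.08 in WT replicates 1, 2, 4, 5 and 6, and between 0.99 and 1.38 in KO.

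These low levels were means over probes that disagreed. Of the 54 member probes, 8 had a level under 1, and each lay in a gene with another probe well above 1. In Ndufv3 the 3 probes stood at -0.58, -0.42 and 2.62, in Ndufs4 the 2 probes at 0.01 and 2.63, and in Ndufv2 at 0.02 and 2.54. Ndufs5 (0.13 and 2.67), Ndufc1 (0.60 to 3.48) and Ndufab1 (0.11 to 2.86) had the same spread. Without the 8 low probes, a choice made after the data were seen, Ndufv3 stood at 2.62 and the median level of the 36 members was 2.67. The position of the probes in the transcripts was not analysed here.

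**Figure D1:**
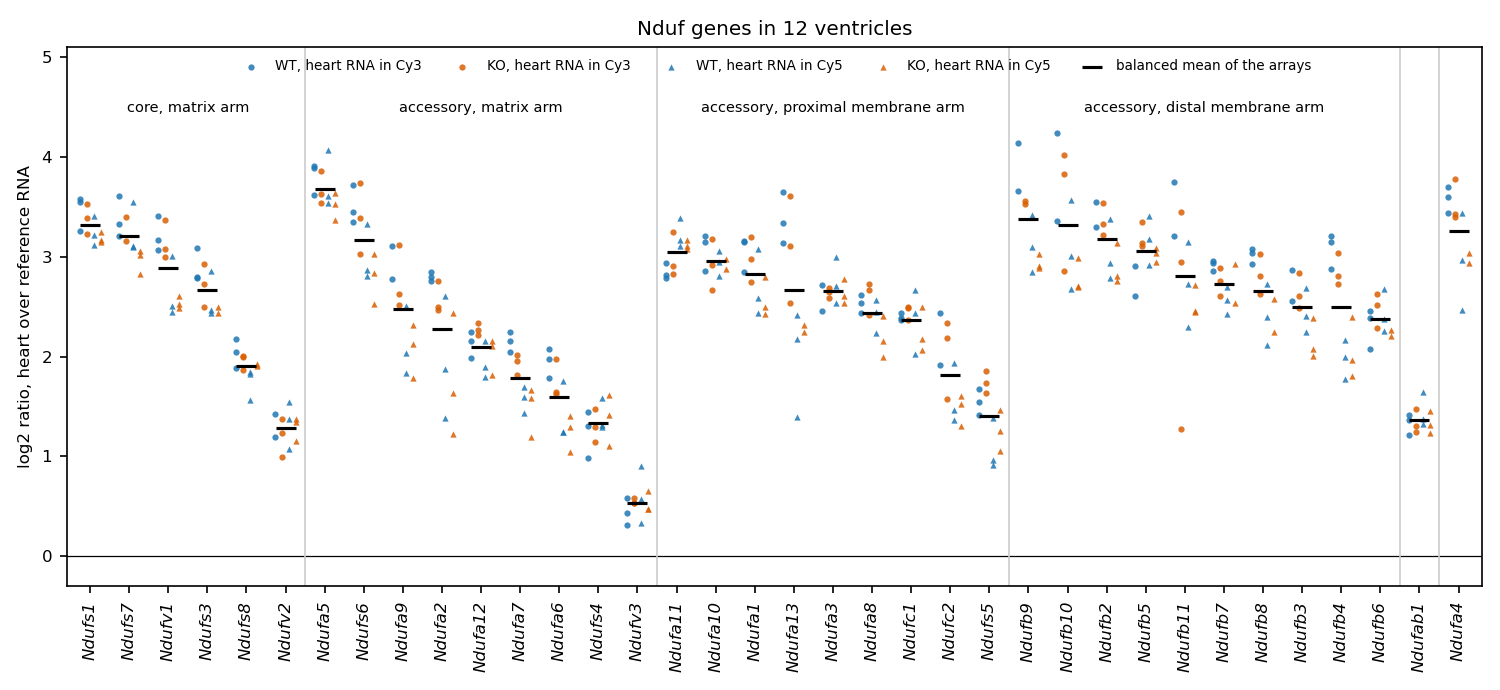
Log2 ratio of heart over reference RNA (y axis) for the 36 Nduf genes (x axis, grouped by place in the complex), with 1 point per animal, blue for WT and orange for KO, circles for heart RNA in Cy3 and triangles for Cy5. Black bars are the mean over the 4 combinations of genotype and dye. Points are values joined over the probes of a gene, and every point lies above 0. The 2 groups without a heading are Ndufab1 and Ndufa4.

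The main question of the series was how the loss of AMPK alpha2 changes gene expression in the heart. No Nduf gene passed the test between genotypes. In limma with genotype and dye as terms, 0 of 36 members had an adjusted p under 0.05, and 0 had an unadjusted p under 0.05, against 0.00387% and 5.33% of all features. Adjusted p-values of the members lay between 0.935 and 0.997. Without regard to the test, 28 of 36 (77.8%) were below WT, against 50.3% of all features, and the median difference was -0.08 on the log2 scale. The members share the same 12 animals and arrays and varied together, so this count is not one of separate measurements. Without WT replicate 5, which was high in all 35 members other than Ndufa4, the median was -0.02 and 24 members were below WT. Without WT replicate 6, the opposite animal, the median was -0.13 and 31 were below, and without both, a choice made after the data were seen, it was -0.07 and 28 were below. Leaving out KO replicate 2 moved the median to -0.14, leaving out WT replicate 1 to -0.04, leaving out KO replicate 1 to -0.05, and leaving out WT replicate 3 and KO replicate 4, which had most empty cells, to -0.04. In bulk tissue, fewer cardiomyocytes and less RNA per cardiomyocyte cannot be told apart.

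The intervals limit how large a difference could have been missed. All 36 of the 95% intervals included 0, 31 lay within 0.5 of 0 on the log2 scale and 35 lay within 1 of 0. No member had WT and KO animals that did not overlap, against 0.465% of all features.

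Among the core subunits of the matrix arm, 5 of 6 measured were below WT, with a median difference of -0.08. Ndufs7, which carries the iron-sulfur cluster next to the ubiquinone site, was at 3.39, 3.16, 3.01, 2.82 and 3.05 in KO replicates 1, 3, 4, 5 and 6. In WT its lowest, median and highest values were 3.09, 3.27 and 3.61. KO replicates 4, 5 and 6 lay below the lowest WT animal and KO replicate 1 among the upper WT animals, so the groups overlapped. The difference was -0.21 ± 0.12 (SE, limma adjusted p = 0.942). Ndufs8, another iron-sulfur subunit, was between 1.57 and 2.18 in WT and at 1.86, 1.99, 2.01, 1.90 and 1.93 in KO replicates 1, 2, 3, 5 and 6, a narrower range inside that of WT. Its difference was 0.03 ± 0.10 (adjusted p = 0.991). Ndufv1, which binds NADH and flavin mononucleotide, and Ndufs3 differed by -0.09 ± 0.11 and -0.15 ± 0.11, and Ndufs1 and Ndufv2 each by -0.07.

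Of the 9 accessory subunits of the matrix arm, 6 were below WT and 3 above, with a median difference of -0.16. Ndufa5, whose values are given above, differed by -0.18 ± 0.11 (SE, limma adjusted p = 0.942). Its KO median lay near the lowest values of WT, and its ranges overlapped. Ndufa7 had lowest, median and highest values of 1.44, 1.87 and 2.25 in WT and 1.20, 1.74 and 2.02 in KO. Its difference was -0.16 ± 0.10 (adjusted p = 0.942), and -0.22 and -0.04 in its 2 probes. Ndufa12 went the other way, with 1.79, 2.07 and 2.25 in WT and 1.82, 2.19 and 2.33 in KO, a difference of 0.11 ± 0.09 (adjusted p = 0.952) that was above 0 in each of its 3 probes. Ndufs4 (0.02 ± 0.12) and Ndufv3 (0.02 ± 0.10) were near 0. In Ndufs4 both probes were slightly below WT, at -0.002 and -0.011, so its sign above WT came from how the probes were joined. In Ndufv3 the probe of high level was at -0.12 and the other 2 at 0.06, so the sign depends on the probe. Ndufa6, which anchors acyl carrier protein to the complex, differed by -0.18 ± 0.12, Ndufs6 by -0.16 ± 0.14, Ndufa9 by -0.11 ± 0.16 and Ndufa2 by -0.21 ± 0.21.

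In the proximal membrane arm, 7 of 9 accessory subunits were below WT, with a median difference of -0.04. Ndufs5, a subunit on the intermembrane-space side, was the member with the smallest p above WT. Its lowest, median and highest values were 0.92, 1.40 and 1.67 in WT and 1.05, 1.55 and 1.85 in KO. The ranges overlapped over most of their length. The difference of 0.18 ± 0.11 (SE, limma adjusted p = 0.942) joined 2 probes that disagreed, one at -0.14 with a level of 0.13 and one at 0.44 with a level of 2.67. The probe of high level stood at 2.89 ± 0.47 (SD, n = 6) in KO against 2.38 ± 0.52 (SD, n = 5) in WT. Without the low probe the difference was 0.44 (adjusted p = 0.930). With a plain mean over the probes that had a value it was 0.60, larger than in either probe. In that mean WT replicate 3 had only the low probe (0.167) and KO replicate 1 only the high probe (2.982). Unlike probes were thus set against each other, and 0.60 is not a larger genotype difference. Ndufs5 and Ndufb6 lie on chromosome 4.

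Ndufa1, a small membrane subunit encoded on the X chromosome, had values of 2.44, 2.96 and 3.16 in WT and 2.43, 2.77 and 3.20 in KO. Its difference was -0.10 ± 0.13 (limma adjusted p = 0.961), with probes at -0.15 and 0.01. Ndufa11, which sits where complex I meets complex III in supercomplexes, had values of 2.79, 3.02 and 3.39 in WT and 2.83, 3.09 and 3.24 in KO, a difference of 0.02 ± 0.10 with probes at -0.03 and 0.08. Ndufc1 had values of 2.02, 2.41 and 2.66 in WT and 2.07, 2.43 and 2.50 in KO, a difference of -0.04 ± 0.11 with probes between -0.18 and 0.13. In none of the 3 were the groups apart. The other members of this arm, Ndufa3, Ndufa8, Ndufa10, Ndufa13 and Ndufc2, had differences between -0.12 and -0.03.

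In the distal membrane arm, 8 of 10 measured accessory subunits were below WT, with a median difference of -0.10. Ndufb9, which also anchors acyl carrier protein, had the smallest p of all members below WT. It was at 4.13, 3.66, 3.10, 3.42 and 2.85 in WT replicates 1, 2, 4, 5 and 6, and at 3.53, 3.56, 2.905, 3.03 and 2.89 in KO replicates 1, 3, 4, 5 and 6. WT replicates 1 and 2 were above every KO animal, but WT replicate 6 was below every KO animal. The difference was -0.25 ± 0.13 (SE, limma adjusted p = 0.935), and -0.16 without WT replicate 1. Ndufb5 was at 2.91, 2.60, 3.18, 3.40 and 2.92 in WT replicates 1, 2, 4, 5 and 6, and between 2.95 and 3.35 in KO. It differed by 0.12 ± 0.14 (adjusted p = 0.960), by 0.44 in the Cy3 orientation and by -0.14 in the Cy5 orientation. No other member had an unadjusted p under 0.05 for that interaction of genotype and dye (limma adjusted p = 0.935). In limma, 0 members and 0% of all features passed that test.

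Ndufb11, an X-linked subunit singled out after its values were seen, had the difference of largest size, -0.51 ± 0.33 (SE, limma adjusted p = 0.942). KO replicate 2 stood at 1.27 and the other KO animals between 2.45 and 3.45, while WT animals lay between 2.30 and 3.75. Without KO replicate 2 the difference was -0.22. Ndufb10 had the next largest, -0.26 ± 0.23, and Ndufb3 was at -0.19 ± 0.12.

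Ndufab1, the mitochondrial acyl carrier protein that is part of both arms and serves fatty acid synthesis, had values of 1.22, 1.37 and 1.64 in WT and 1.24, 1.31 and 1.47 in KO. Its difference was -0.05 ± 0.09 (limma adjusted p = 0.973), and its 4 probes lay between -0.14 and 0.11. Ndufa4 had values of 2.46, 3.43 and 3.70 in WT and was at 3.40, 3.78, 3.43, 2.94 and 3.04 in KO replicates 1, 2, 3, 5 and 6. It differed by -0.01 ± 0.15 (adjusted p = 0.997).

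**Figure D2:**
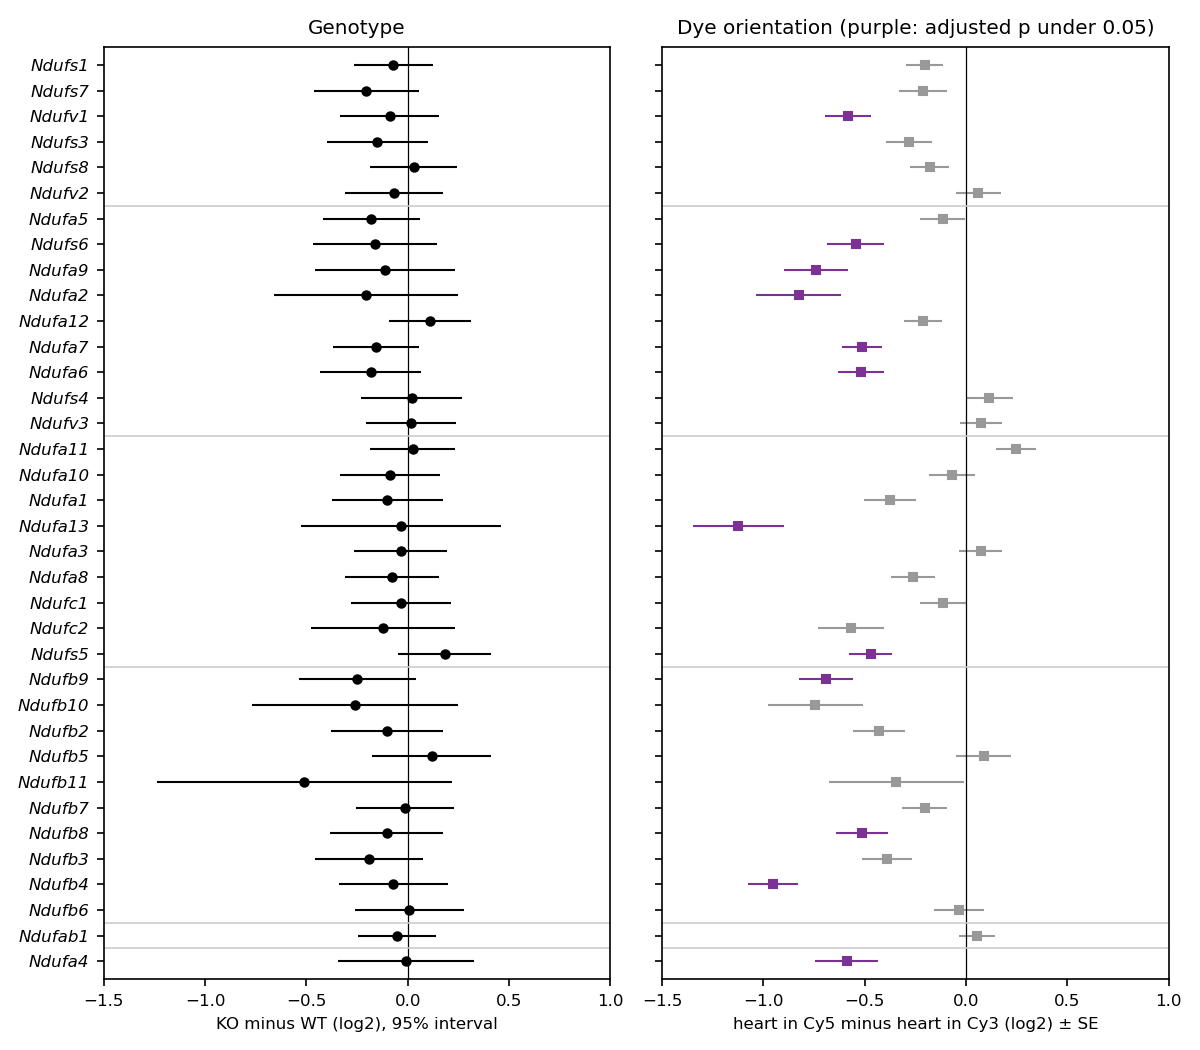
Differences of the 36 Nduf genes (y axis, in the order of the plot of levels) on the log2 scale (x axes). The left panel shows KO minus WT with 95% intervals, all of which include 0. The right panel shows heart RNA in Cy5 minus heart RNA in Cy3 with standard errors, and the 12 members in purple had an adjusted p under 0.05, all of them on the lower side.

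The members differed more between dye orientations than between genotypes. With heart RNA in Cy5, 29 of 36 (80.6%) had a lower ratio than with heart RNA in Cy3, against 47.7% of all features. In limma 12 of 36 (33.3%) were called lower, against 3.39% of all features (5.71% in either direction), and 5 of 36 (13.9%) had orientations that did not overlap, against 6.53%. The median dye difference was -0.31, and 31 of 36 members had a dye difference of larger size than their genotype difference. Each orientation held different animals, so the dye and the animals cannot be told apart. The count of calls depended on single arrays. It was 4 without WT replicate 1, 7 without WT replicate 3, 6 without WT replicate 4, WT replicate 6 or KO replicate 2, 2 without both WT replicate 3 and KO replicate 4, and 4 with quantile normalization. It was 16 without WT replicate 5, 17 with array weights, 15 with only features at least 0.5 from 0, and 14 with centred arrays.

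Ndufa13, a subunit also known as a regulator of cell death, had the dye difference of largest size. It was at 3.34, 3.14 and 3.65 in WT and 2.54, 3.61 and 3.10 in KO with heart RNA in Cy3, and at 2.18, 2.41 and 1.39 in WT and 2.24 and 2.32 in KO with heart RNA in Cy5. The orientations did not overlap, and the difference was -1.12 ± 0.23 (SE, limma adjusted p = 0.0166). Ndufb4, a distal membrane subunit, was between 2.73 and 3.21 in Cy3 and between 1.78 and 2.39 in Cy5, a difference of -0.95 ± 0.12 (adjusted p = 0.00208). Genotypes were balanced over the dyes, and the genotype differences given above were fitted with the dye as a term. Within Cy3 the median KO minus WT difference was -0.09 with 25 members below WT, and within Cy5 it was -0.11 with 28 below. Only 19 members were below WT in both orientations, and 15 had opposite signs.

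Nduf genes went up and down together from animal to animal. Deviations of each animal from the mean of its genotype and dye were compared over the 17 members measured on all 12 arrays. The median Pearson's r over their 136 pairs was 0.66, from -0.13 to 0.93, and 97.8% of pairs were above 0. Over the 8609 features measured on all arrays the median was 0.003 with 50.3% of pairs above 0, and over the 791 of these with a level above 1 that passed as above the reference it was 0.16. These values describe 12 arrays. All pairs share the same animals, RNA preparations and arrays, so they carry no p-value. Without WT replicate 5 the median was 0.53, the lowest of the alternatives computed, and without WT replicate 2, KO replicate 1 and KO replicate 6 it was 0.75, the highest.

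WT replicate 5 was above the mean of its combination in 35 of 35 members other than Ndufa4, and WT replicate 6 in 0 of 35. WT replicate 1 was above it in 31 of 35 and KO replicate 6 in 28 of 35, while WT replicate 2 was above it in 2 of 35 and KO replicate 4 in 5 of 28. The deviations of a member sum to 0 within a combination, so a high animal lowers the others and these counts are not separate measurements. Where WT replicate 3 had no value, WT replicates 1 and 2 deviated by equal amounts in opposite directions, as in Ndufa3 (0.1275 and -0.1275). The mean level over the 17 members was 2.53, 2.32 and 2.47 in WT replicates 1 to 3 and 2.33, 2.52 and 2.37 in KO replicates 1 to 3, with heart RNA in Cy3. It was 2.09, 2.43 and 1.97 in WT replicates 4 to 6 and 1.95, 2.02 and 2.25 in KO replicates 4 to 6. The highest and lowest animal lay farthest apart in WT with heart RNA in Cy5 (2.43 and 1.97). Any combination holds animals above and below its own mean, whatever the genotype or dye. KO replicate 6 was also the animal with high lung and liver markers, and WT replicate 2 and KO replicate 1, both low for the members, were those with the highest atrial markers. WT replicate 6, the animal farthest below its combination mean, had an atrial list mean of 4.05, which lacked Myl7. Over 12 animals the mean of the 3 atrial markers on all arrays, without Myl7, had r = -0.46 with the mean of the members. Its rho was -0.41, and r was -0.58 without WT replicate 5 and KO replicate 6, -0.76 in Cy3 and -0.36 in Cy5. Without WT replicate 2, KO replicate 1 and KO replicate 6 the median r of the members was 0.75, as given above. That choice kept WT replicate 6 and KO replicate 5, which had an atrial list mean of 3.20. A link between atrial tissue and the co-variation was not tested.

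**Figure D3:**
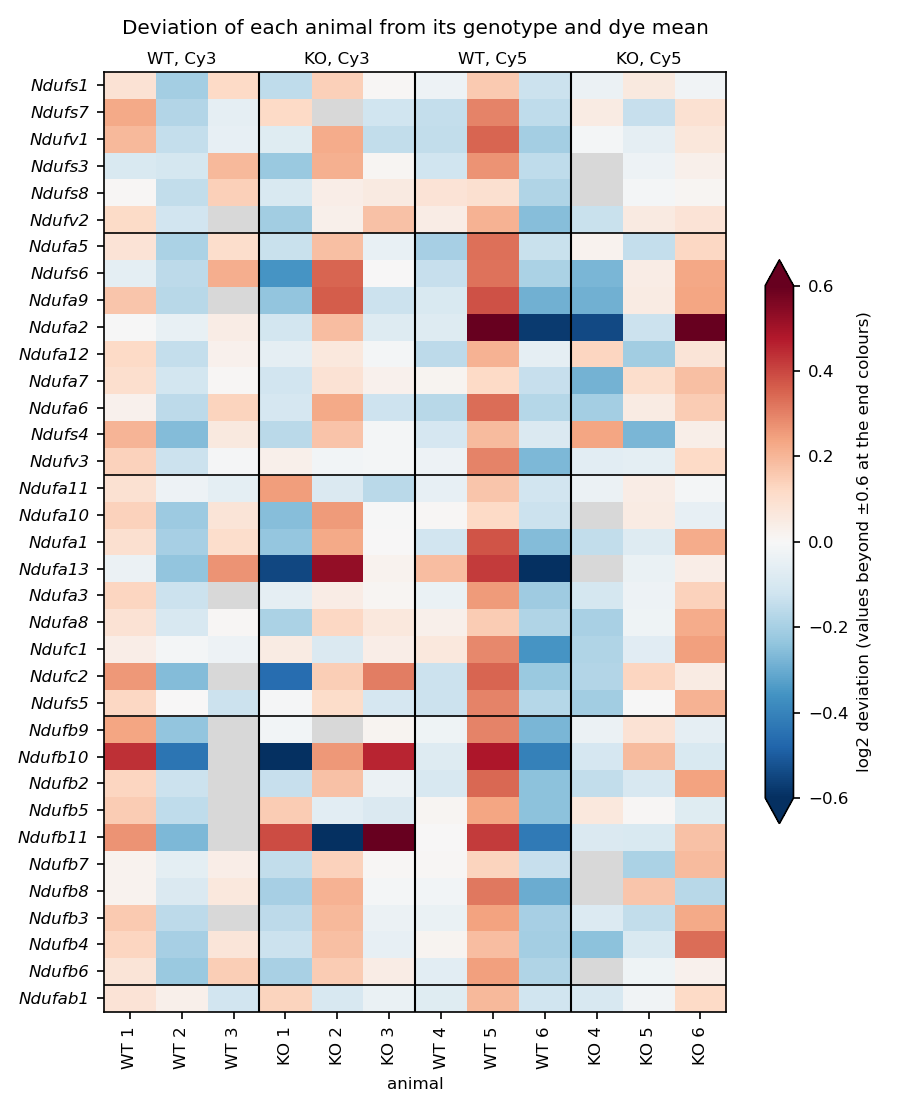
Deviation of each animal (x axis, 12 animals) from the mean of its genotype and dye for 35 Nduf genes (y axis), coloured on the log2 scale from blue (below) to red (above), with grey for no value. The column of WT replicate 5 is red for all 35 genes and that of WT replicate 6 is blue for all 35.

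Of the 17 members on all arrays, Ndufa1 followed the mean of the others most closely (r = 0.96), then Ndufa6 (0.90) and Ndufb4 (0.89). Ndufa11 was the loosest (0.28), with Ndufs4 (0.49) and Ndufab1 (0.55) next. Ndufs4 and Ndufab1 join probes of high level with probes near 0 (0.01 and 0.11), which limits this ranking. Ndufs5, Ndufc1 and Ndufv3 also join low probes and had r of 0.86, 0.74 and 0.87. The closest pairs were Ndufa8 with Ndufb4 (0.93), Ndufa12 with Ndufs4 (0.92) and Ndufa1 with Ndufa6 (0.91). In KO replicate 4, Ndufs4 and Ndufa12 each had a value only from their probe of lowest level. Within the 8 accessory subunits of the matrix arm the median was 0.68, and within the 5 of the proximal membrane arm it was also 0.68. Of the closest members named here, Ndufa1 had a promoter window without a match, Ndufa6 held 1 NRF1 match and Ndufb4 3 NRF1 matches and 1 ERR match. Of the loosest, Ndufa11 held 1 NRF1 match, Ndufs4 held 1 YY1 match, and no match was found for Ndufab1. A relation between motifs and co-variation was not tested.

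Other parts of the respiratory chain were set beside the members. The mean deviation of 6 ATP synthase subunits had r = 0.95 with that of the members (rho 0.99, and r = 0.91 without WT replicate 5 and KO replicate 6, the animals farthest from the median). It was 0.96 among the 6 animals of the Cy3 orientation and 0.95 among those of the Cy5 orientation. For 4 complex III subunits r was 0.88 (rho 0.90, and 0.85 without both animals), and for 5 enzymes of the tricarboxylic acid cycle 0.81 (rho 0.87, and 0.79). The 1 complex IV subunit on all arrays had r = 0.89 (rho 0.85, and 0.82), and the 1 complex II subunit r = 0.10 (rho 0.13, and 0.11), with 0.11 in both orientations. For 6 complex I assembly factors it was 0.63 (rho 0.52, and 0.44), with 0.05 in Cy3 and 0.84 in Cy5. Their own pairs had a median r of 0.22, against 0.65 for ATP synthase. The mean of 6 regulators of mitochondrial genes had r = -0.18 (rho -0.20, and 0.21), with 0.65 in Cy3 and -0.78 in Cy5, so no single value describes it. The 4 cardiomyocyte markers on all arrays had r = 0.31 (rho 0.39, and 0.65), with 0.89 in Cy3 and 0.05 in Cy5. The share of missing values had r = -0.17, with 0.09 in Cy3 and -0.33 in Cy5. The width of each array's value distribution (interquartile range) had r = 0.44 (rho 0.27, and -0.03 without both animals), with -0.52 in Cy3 and 0.95 in Cy5, and WT replicate 5 had a width of 0.841. The median of each array had r = 0.50 (rho 0.18, and -0.02), with -0.46 in Cy3 and 0.70 in Cy5. With quantile normalization, which gives all arrays the same distribution, the median r of the members was 0.59, and with centred arrays 0.65. All these relations describe the same 12 arrays and were given no test, and 18 of this kind were computed.

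**Figure D4:**
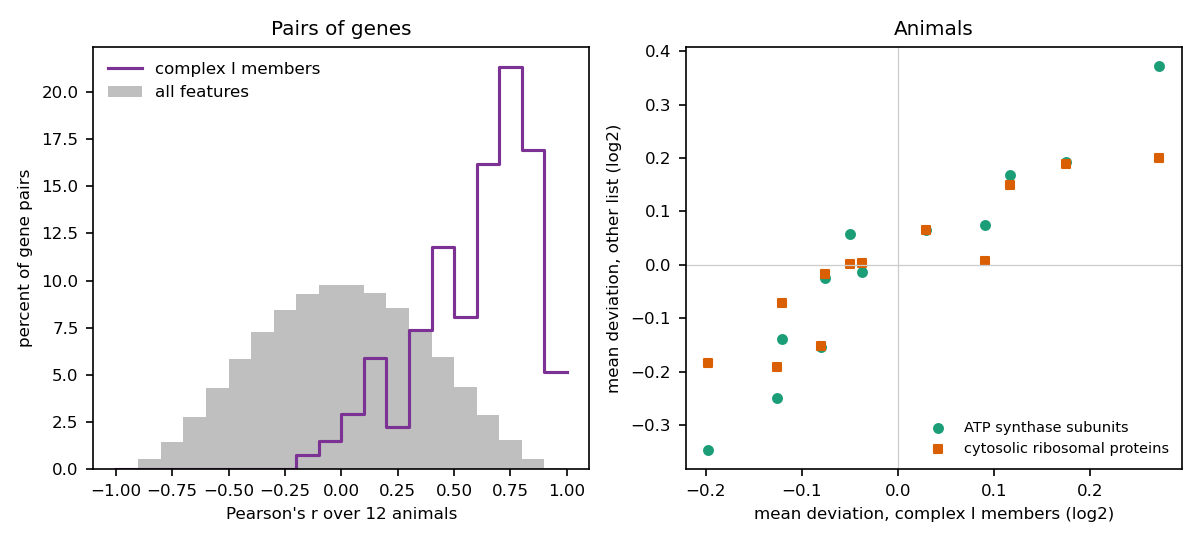
Left, percent of gene pairs (y axis) by Pearson's r of their deviations over 12 animals (x axis) for 136 pairs of Nduf genes (purple line) and for all features (grey). The purple line lies to the right, with a median of 0.66 against 0.003. Right, mean deviation per animal of the 17 Nduf genes (x axis, log2) against that of 6 ATP synthase subunits (green circles) and 42 cytosolic ribosomal proteins (orange squares), with 1 point per animal and list.

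Of 7410 named genes on all arrays outside the members, Fth1, the heavy chain of ferritin, was the most like the mean of the members (r = 0.985 over 12 animals). It was followed by Glrx5 (0.969), a mitochondrial glutaredoxin of iron-sulfur cluster assembly, Timm13 (0.961), a chaperone of mitochondrial protein import, Alad (0.960), an enzyme of haem synthesis, and Spcs1 (0.951), a subunit of the signal peptidase. Fth1 stood at 0.74 in WT replicate 5 and at -0.27 in WT replicate 6. The lowest r belonged to Stat6 (-0.945), Dimt1 (-0.934) and Inhbb (-0.932). These are the ends of a ranking of all 7410 genes over 12 animals.

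None of the other lists held a gene that passed the genotype test in limma. All 9 measured complex III subunits were below WT (median difference -0.11), as were 14 of 15 ATP synthase subunits (-0.09), 11 of 13 complex IV subunits (-0.13), 10 of 12 enzymes of the tricarboxylic acid cycle (-0.06) and 2 of 4 complex II subunits (-0.04), against 50.3% of all features. Assembly factors had 9 of 13 below WT (-0.03). Their median log2 ratio over the reference was 1.17, against 2.66 for the members. ND4L, encoded in mitochondrial DNA and the only membrane core subunit measured, stood at 4.35 ± 0.36 (SD, n = 6) in KO against 4.38 ± 0.23 (SD, n = 5) in WT (limma adjusted p = 0.991). In all these lists, 1 gene had an unadjusted p under 0.05. It was Esrrg, an estrogen-related receptor that activates mitochondrial genes, with 1.48 ± 0.26 (SD, n = 6) in KO against 1.18 ± 0.12 (SD, n = 5) in WT and a difference of 0.30 ± 0.13 (SE, limma adjusted p = 0.930).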

How the data were processed

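Two-colour Agilent arrays of 12 ventricles were deposited as 1 table of signed log ratios. The labels' protocols state that 1 µg of RNA was amplified and labelled, with dyes swapped on distinct animals. The authors' background correction, normalization, filter and logarithm base are not given in the sources used here. The deposited values are treated as log2 ratios, although nothing states the base, and base e would scale every difference by the same factor. Array medians lay between -0.029 and 0.068. Arrays of opposite dye orientation correlated at 0.835 to 0.936, so all were taken as heart over reference. No 2 arrays shared more than 0.186% of their values. The labels describe the animals as biological replicates. The number of arrays limits the precision.

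Probes were named through the platform annotation, which gave 31700 probes 1 symbol, 47 several and 9427 none. All 36 member symbols equal those of RefSeq (GRCm38.p6). Probes needed 2 values in each combination of genotype and dye (36826 kept, 4348 left out), and all 54 member probes were kept. Probes of a gene were joined by an additive fit of probe and array. The 25821 features were fitted in limma 3.58.1 (R 4.3.3, lmFit and eBayes) with genotype and dye as sum-coded terms. Two-sided p-values were adjusted over all features (Benjamini-Hochberg, threshold 0.05). The pipeline was tested on simulated data. Deviations of same-numbered WT and KO animals correlated at -0.21 to 0.04, and only WT replicate 5 correlated best with the KO animal of its number. This check gave no sign of a general pairing by number but cannot exclude one.

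The members and lists were chosen with earlier results of these data known. The named members were the 4 of smallest p in each direction, the 3 highest and 3 lowest over the reference, Ndufa4 and those whose probes differed in sign. Alternatives changed the dye term, normalization, array weights, probe summary, filters and animals, or used the replicate number as a block. Promoters were searched with Python 3.11.15 and pandas 2.3.3, and matplotlib 3.10.9 drew the plots. Sequences are RefSeq's, found for 33 of 36 members.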

Additional observations from a re-analysis of the deposited data

How the results depend on the processing

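Over 27 alternatives 0 members passed the genotype test in limma, and the median difference stayed below 0, from -0.16 with quantile normalization to -0.02 without WT replicate 5 (leave-one-out -0.14 to -0.02). With the replicate number as a block, which the check of the numbers did not call for, 0 members passed, 28 were below WT, the median was -0.09 and the median r of the members was 0.67. Features passing over the whole table numbered 1, against 3 with quantile normalization, 3 without KO replicate 6, 6 with features at least 0.5 from 0, and 0 to 2 in the other alternatives. Members called above the reference numbered 36 in each alternative except 34 with 1 probe per gene, where Ndufv3 and Ndufs4 were not, and 17 of 17 with features on all 12 arrays. There 12 of the 17 were below WT and the median level was 2.37. The count called lower in Cy5, 12 of 36, was 4 with quantile normalization, 7 of 17 with features on all arrays, 2 without WT replicate 3 and KO replicate 4, and 4 to 16 in leave-one-out. The cause was not tested beyond the fewer genes or animals.

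Genotype differences near 0 changed sign, none past the threshold. Leaving out WT replicates 5 and 6 or probes of level under 1, and the counts for Cy5, were chosen after seeing the data. Ndufa4 was at 0.0503 without the dye term, 0.000519 with centred arrays, 0.0604 with array weights, 0.0261 without WT replicate 3 and KO replicate 4, 0.0322 in Cy5 alone, and -0.111 to 0.084 in leave-one-out. Ndufs8 was at -0.0848 with quantile normalization, -0.0847 in Cy3 alone, -0.0312 without WT replicates 5 and 6, and -0.0182 to 0.0783 in leave-one-out. Ndufs4 was at -0.0299 with quantile normalization, -0.201 with the plain mean, -0.011 with 1 probe, -0.0269 without WT replicate 2, KO replicate 1 and KO replicate 6, -0.0258 without WT replicate 3 and KO replicate 4, -0.033 in Cy5 alone, -0.00207 without probes of level under 1, and -0.0432 to 0.0854 in leave-one-out. Ndufa11 was at -0.0343 with quantile normalization, -0.0453 without WT replicate 2, KO replicate 1 and KO replicate 6, -0.0905 in Cy5 alone, and -0.0468 to 0.0746 in leave-one-out. Ndufv3 was at -0.058 without those 3 animals, -0.0753 in Cy5 alone, -0.119 without probes of level under 1, and -0.0367 to 0.0942 in leave-one-out, and its level was -0.422 with 1 probe (limma adjusted p = 2.19e-06). Ndufc1 was at 0.00156 without WT replicate 3 and KO replicate 4, 0.0568 in Cy3 alone, and -0.102 to 0.0379 in leave-one-out. Ndufab1 was at 0.00296 with the plain mean and 0.00711 in Cy3 alone, Ndufa1 at 0.00989 with 1 probe and Ndufb5 at -0.142 in Cy5 alone. In the plain mean of Ndufs4, KO replicate 4 had only the low probe (0.292), so unlike probes were set against each other there too. The causes of the other sign changes were not tested.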

Other observations

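Lists outside the respiratory chain were added after the data were seen, to place the co-variation of the Nduf genes. Over the same 12 animals, the mean deviation of 42 cytosolic ribosomal proteins had r = 0.92 with that of the 17 Nduf genes (rho 0.98), that of 24 proteasome subunits 0.74 (rho 0.64) and that of 32 mitochondrial ribosomal proteins 0.52 (rho 0.50). Pairs within these lists had a median r of 0.34, 0.10 and 0.15, against 0.66 for the Nduf genes. Cytosolic ribosomal proteins were mostly below the reference, with a median log2 ratio of -1.18, and Nduf genes above it, with 2.66. Among the genotype differences, 48 of 80 cytosolic ribosomal proteins, 55 of 78 mitochondrial ribosomal proteins and 38 of 49 proteasome subunits were below WT, against 50.3% of all features. Their medians were -0.03, -0.04 and -0.04. Genes of a list share the same 12 animals and arrays, so these counts are not of separate measurements.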
